A study of Mus musculus with 4 samples.

Results

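The 7 Hes and Hey genes examined were Hes1, Hes5, Hes6, Hes7, Hey1, Hey2 and Heyl, taken by name from 21887 protein-coding genes of the mouse. For each, all WT1 peaks with a midpoint in the gene or within 100 kb of it were collected from chromatin immunoprecipitation followed by sequencing (ChIP-seq) of developing kidneys. The kidneys were microdissected from wildtype embryos at E18.5, on a mixed background of C57Bl6 crossed with B6DBA/F1. In the WT1 group, 2 samples were precipitated with the C-19 antibody against WT1, a zinc-finger transcription factor of podocytes and nephron progenitors. The control group of 2 IgG samples came from the same stage and background and was not analysed here. The series' design text calls the 2 experiments independent, and the labels do not say how many animals went into each. Whole kidneys mix many cell types, so a peak bound strongly in few cells and one bound weakly in many cannot be told apart. The lists give positions of WT1 enrichment and no expression values, so the tissue label was not checked against marker genes.

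Hes and Hey proteins are basic helix-loop-helix transcription factors of the Orange subfamily, most of them repressors. When a Notch receptor is activated by a ligand on a neighbouring cell, its intracellular domain is cut free, enters the nucleus and joins the DNA-binding protein RBPJ and a Mastermind coactivator, and Hes and Hey genes are among the first genes switched on. Notch signalling is needed in the forming nephron for its proximal segments, podocytes included.

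WT1 replicate 1 held 53132 peaks and replicate 2 held 57641, and 17234 regions were found in both. Each peak carries the authors' significance value, taken to be a p or q and smaller where enrichment was stronger. Each region carries an irreproducible discovery rate (IDR), which is lower where the replicates ranked a site alike and high. A region counts as reproducible at an IDR of at most 0.05, and 4411 did. The read depth behind a peak is unknown, and a single group of 2 samples allows no test, so all values are a description. Counts at the 7 genes are set beside the share of all protein-coding genes or regions that meet the same rule.

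All 7 genes had at least 1 reproducible region within 100 kb, where 38.1% of protein-coding genes had one. The 7 genes were chosen with earlier results of these data known, so shares set beside them are a description. Hes1 had 13, Hes7 had 4, Hey1 and Heyl had 3 each, and Hes5, Hes6 and Hey2 had 1 each, 26 in all. Inside the gene or within 10 kb of it, 5 of the 7 had a reproducible region (13.6% of protein-coding genes), namely Hes1, Hes7, Hey1, Hey2 and Heyl. The regions of Hes5 and Hes6 were farther away. In all, 54 regions of any IDR lay in these windows and 48.1% of them were reproducible, against 25.6% over the whole table. Of the 26 reproducible regions, 4 lay inside the gene itself, 13 below its lower-coordinate end and 9 above its higher-coordinate end. Another protein-coding gene was nearer for 7 of them, and when each region was counted only for its nearest gene, Hes5 and Hes6 had none. Hes7 and Hey1 then had 1 each, and that of Hey1 also lay inside the overlapping gene LOC115489673. The region just inside the threshold lay at Hey1 (IDR 0.0439) and the one just outside it at Hes7 (IDR 0.0511).

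**Figure D1:**
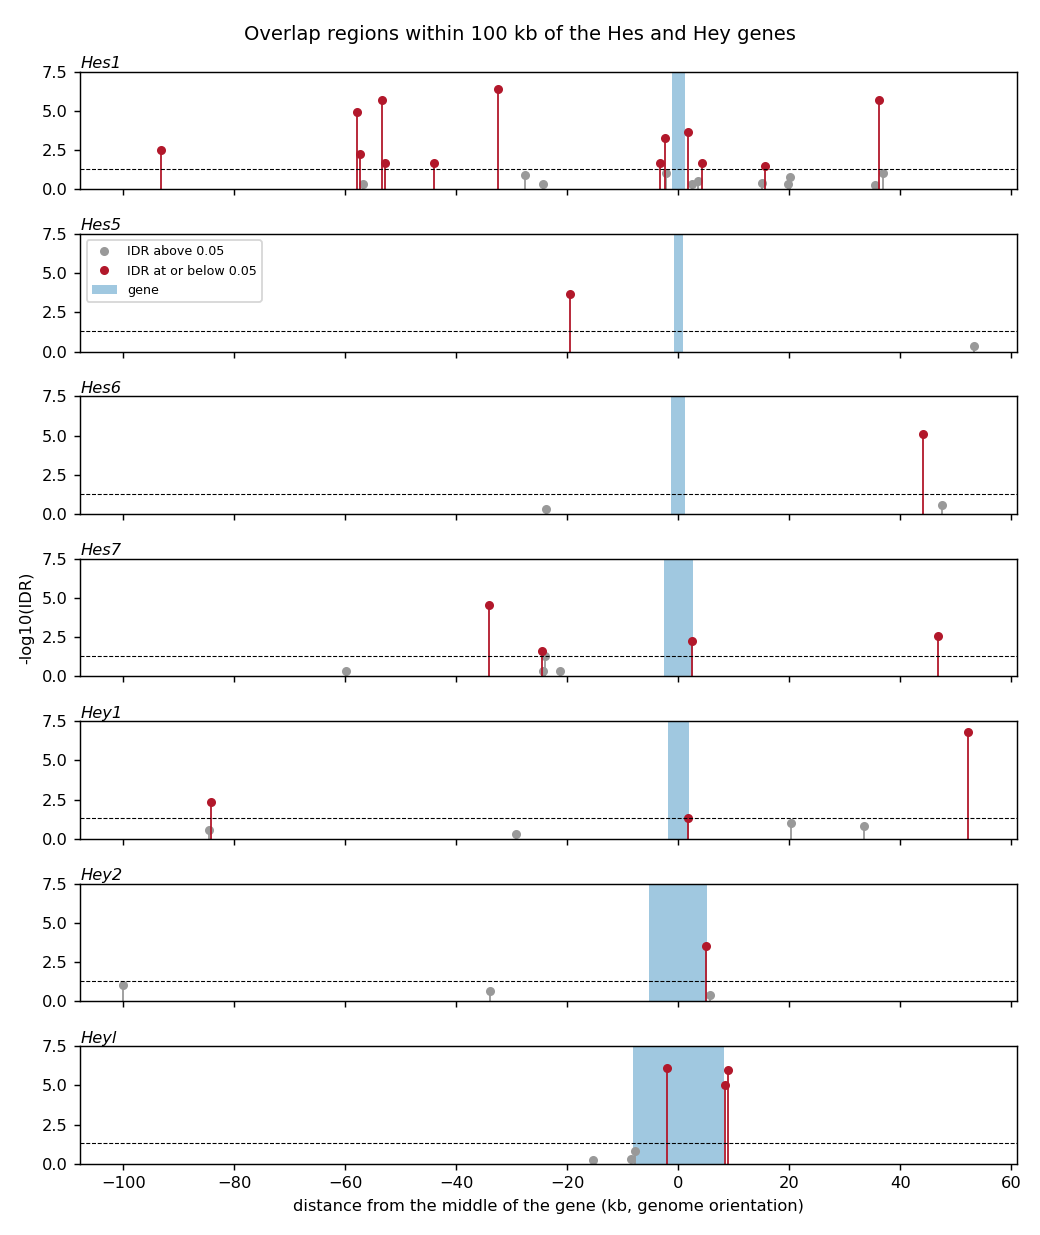
All overlap regions within 100 kb of each gene, plotted by distance from the middle of the gene (x axis, kb) and by -log10 of the IDR (y axis), with the gene as a blue band and the 0.05 threshold as a dashed line. Hes1 shows 13 red points on both sides of the gene, and the highest point of all, at IDR 1.55e-07, belongs to Hey1.

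The region counts set Hes1 apart from the other members. No other protein-coding gene had 13 or more reproducible regions within 100 kb (0.00457% of genes, Hes1 alone), while the median gene had 0. At least 4, the number at Hes7, were found at 2.60% of genes, and at least 3, the number at Hey1 and Heyl, at 6.58%. The single regions of Hes5, Hes6 and Hey2 are what 38.1% of genes have or exceed. Regions were counted as listed at every gene, and close neighbours were not joined. Such a pair at Hes1 was 30013038 to 30013427 and 30013456 to 30013910. Counts after joining were not computed. The position of Hes1 at the top depended on the threshold. It kept it at an IDR of 0.1 (15 regions) and with the strongest peaks of replicate 1 alone (15), but 3 genes had more at an IDR of 0.01 (8 at Hes1), and 4 had more when all overlap regions were counted (24) and with the strongest peaks of replicate 2 alone (11).

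**Figure D2:**
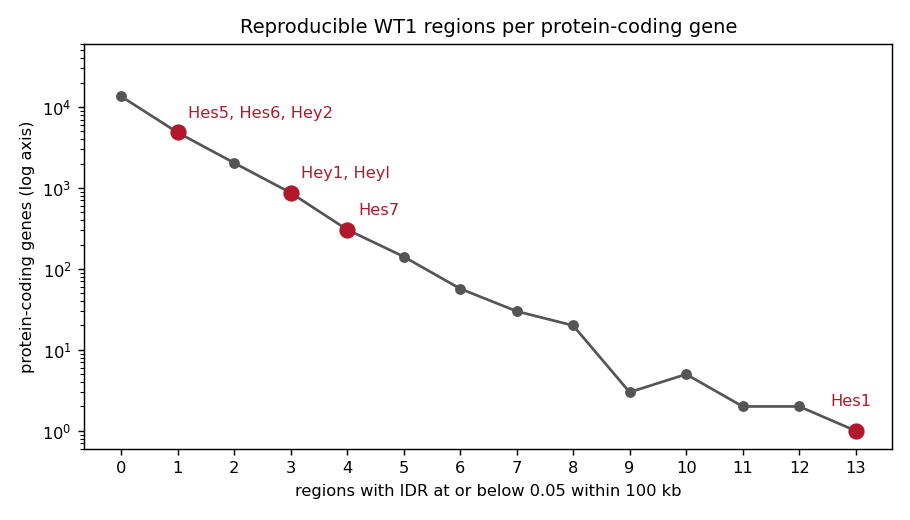
Number of protein-coding genes (y axis, log scale) with each number of reproducible regions within 100 kb (x axis), the Hes and Hey genes marked in red. Hes1 is the only gene at 13, and Hes5, Hes6 and Hey2 stand at 1 with 4849 genes in all.

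No other gene shared the count of Hes1. The genes next to it, which were looked up after the counts were seen, were Cxxc5, which encodes a CXXC zinc-finger protein, and Maml3, the Mastermind coactivator of Notch, with 12 each, and Ahdc1 and Msi2 with 11 each. Window size differs between them. Hes1 is 2.44 kb long, so its window spanned 202 kb, while Maml3 and Msi2, at 418 and 379 kb, had windows of 618 and 579 kb. Cxxc5 and Ahdc1 had windows of 232 and 267 kb. Lowest IDR values were 4.43e-07 at Hes1, 1.82e-07 at Cxxc5, 1.01e-06 at Maml3, 6.17e-07 at Ahdc1 and 6.53e-06 at Msi2.

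Hes1 encodes a repressor of proneural and differentiation genes and is widely expressed in embryonic tissues. It lies on chromosome 16 (30065357 to 30067796, GRCm38.p6, the assembly mm10 is based on) in a stretch without other protein-coding genes. The nearest ones, Opa1 and Cpn2, are 402 and 189 kb away, so the count is not shared with a neighbour, and Hes1 was the nearest protein-coding gene to all 13 regions. The table of RefSeq genes used for positions gives no strand for Hes1, and its ends are named by coordinate. Of the 13 regions, 9 lay below the gene, 4 above it and none inside it. They spanned 129 kb from the first midpoint to the last and together covered 5291 bp, with a median width of 390 bp (153 to 798). Of 4411 windows of that span, each beginning at a reproducible region anywhere in the genome, at this IDR threshold only the one at Hes1 held 13 (0.0227%) and none held more. The span was taken from the Hes1 regions themselves, so the windows fit Hes1 exactly and the share is a description, not a test.

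The regions were unevenly spaced. Adjacent midpoints were 6.56 kb apart at the median, 450 bp at the least and 35.4 kb at the most. Parting them wherever a gap exceeded 10 kb gave 6 groups in order of coordinate, a single region, a group of 5, a single region, a group of 4 around the gene, and a pair of single regions. The cluster thus had its main concentrations about 50 kb below Hes1 and next to it.

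The strongest region lay 31.2 kb below Hes1 (chromosome 16, 30033835 to 30034438, 604 bp). Its significance value was 9.13e-32 in replicate 1 and 1.87e-71 in replicate 2, and its IDR of 4.43e-07 ranked 97 among the 17234 regions. The region 52.1 kb below (30013038 to 30013427) had values of 1.82e-18 and 8.32e-53 (IDR 2.02e-06). The region 35.0 kb above (30102385 to 30103182, the widest of the cluster at 798 bp) had values of 7.48e-50 and 1.15e-36 (IDR 2.09e-06). These 3 were the strongest of the cluster in each replicate, in different order. The upper region led in replicate 1 and the region at 31.2 kb led in replicate 2.

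Next to the gene the values were weaker. The region 556 bp above the higher-coordinate end (30068080 to 30068623) had values of 1.64e-10 and 2.33e-14 in replicates 1 and 2 (IDR 2.26e-04). The region 1.28 kb below the lower-coordinate end (30063906 to 30064257) had 6.24e-07 and 1.5e-18 (IDR 5.18e-04). The regions 2.13 kb below and 3.08 kb above the gene had an IDR of 0.0202 and 0.023, with values of 7e-05 and 4.92e-05 in replicate 1 and 3.3e-07 and 3.78e-05 in replicate 2. Hes1 itself held no peak of either replicate, and its flanks on both sides held reproducible ones. At least 4 reproducible regions within 10 kb, close ones again counted separately, were found at 0.302% of protein-coding genes.

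The remaining 6 regions of the cluster ranged from an IDR of 1.18e-05 to 0.0339. The region 56.6 kb below Hes1 (30008609 to 30008830) had values of 8.7e-11 and 7.85e-26 in replicates 1 and 2, and peaks of the same start and end in each. Its neighbour at 56.2 kb had 2.27e-05 and 4.38e-08 (IDR 0.00613), and the region at 92.1 kb, the farthest, had 4.32e-08 and 1.6e-08 (IDR 0.00305). The regions at 51.7 and 42.8 kb below and 14.3 kb above passed with an IDR of 0.0224, 0.0221 and 0.0339. At an IDR of 0.01, 8 of the 13 remained, and these included the strongest regions of each side and the 2 nearest to the gene.

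Beside the 13 reproducible regions, 11 more overlap regions within 100 kb of Hes1 had an IDR of 0.0982 to 0.511. Of these, 7 lay within 1 kb of a reproducible region. Replicate 1 held 32 peaks in the window and replicate 2 held 43, where the median gene had 5 and 7. At least as many were found at 0.215% and 0.137% of protein-coding genes. Of the Hes1 peaks, 26 of replicate 1 (81.2%, against 34.1% of all its peaks) and 27 of replicate 2 (62.8%, against 30.8%) overlapped a peak of the other replicate. A larger share of peaks thus recurred around Hes1 than over the whole lists, but this was not particular to it. The shares of replicates 1 and 2 were 81.8% and 40% at Hes7, and 77.8% and 50% at Hey1. Over all 7 genes they were 68.2% and 49.1%. Overlap regions are themselves peaks found in both replicates, so the share is not separate from the region count. The strongest unshared peaks around Hes1 had values of 0.00261 in replicate 1 (39.6 kb above) and 8.11e-06 in replicate 2 (16 kb above).

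**Figure D3:**
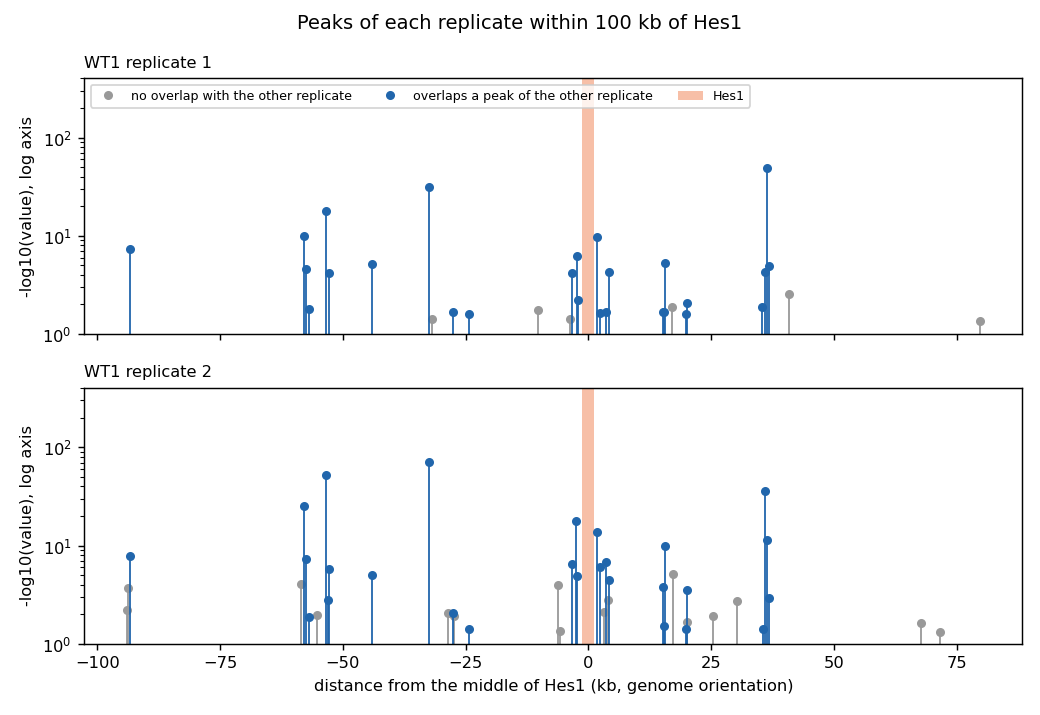
Peaks of replicate 1 (top, 32 peaks) and replicate 2 (bottom, 43 peaks) within 100 kb of Hes1 by distance from the middle of the gene (x axis, kb) and -log10 of the significance value (y axis, log scale), with Hes1 as an orange band. The tallest peaks stand 52.1 and 31.2 kb below and 35.0 kb above the gene in each replicate, and peaks without a partner (grey) are short.

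Long noncoding RNA genes lie around Hes1, and 8 of the 13 regions had their midpoint inside one, against 13.0% of all reproducible regions. How much of the Hes1 window such genes cover was not computed, and the 8 are neighbours at a single locus. The contrast therefore does not show a preference of WT1 for such genes. The noncoding gene 4632428C04Rik held 4 of them, 9030404E10Rik held 2, Gm32998 held the region 556 bp above Hes1, and Gm1968 and Gm32796 overlapped at the region farthest below. The region 56.6 kb below Hes1 covered the start of 4632428C04Rik. Its promoter window from RefSeq (GRCm38.p6, chr16:30008417-30008716, plus strand, 250 bases before the start site and 50 after) is shown because it gives the bases under a strong region of the cluster, with the 108 bases that the region covers in capitals.
4632428C04Rik: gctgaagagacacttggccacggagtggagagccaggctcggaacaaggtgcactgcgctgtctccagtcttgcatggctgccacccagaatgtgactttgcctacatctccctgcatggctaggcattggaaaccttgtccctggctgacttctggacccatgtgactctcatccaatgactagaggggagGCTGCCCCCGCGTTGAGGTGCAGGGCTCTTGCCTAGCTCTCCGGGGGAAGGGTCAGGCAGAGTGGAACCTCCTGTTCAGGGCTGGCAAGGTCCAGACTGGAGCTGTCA
The share of G and C in this window was 59.3%, against a median of 52.7% over all 32851 promoter windows of the table.

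Heyl, a Hey family effector known from vascular smooth muscle, had the most regions close to the gene after Hes1 (chromosome 4, 123233556 to 123249870). At least 3 within 10 kb, as at Heyl, were found at 0.946% of protein-coding genes. The first lay inside the gene, 6.04 kb from its lower-coordinate end (123238796 to 123240406), and was the widest at any of the 7 genes, at 1611 bp. It had values of 2.97e-25 and 2.43e-94 in replicates 1 and 2 (IDR 8.29e-07). The others lay 248 and 831 bp above the higher-coordinate end, with values of 5.67e-19 and 1.36e-27 in replicate 1 and 1.11e-24 and 4.06e-35 in replicate 2 (IDR 9.53e-06 and 9.93e-07). All 3 passed at an IDR of 0.01, and Heyl was their nearest protein-coding gene.

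The opposite end of Heyl differed between the replicates. A region 302 bp below the lower-coordinate end (123232972 to 123233537) had a value of 2.66e-16 in replicate 2 and 0.0173 in replicate 1, and its IDR was 0.509. A second, 315 bp inside the gene, had 0.00359 and 3.96e-04 in replicates 1 and 2 (IDR 0.151). So this end of the gene carried a strong peak in 1 sample and weak ones in the other, and no reproducible region. Replicate 2 also had an unshared peak 51.1 kb below Heyl (value 9.2e-08).

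**Figure D4:**
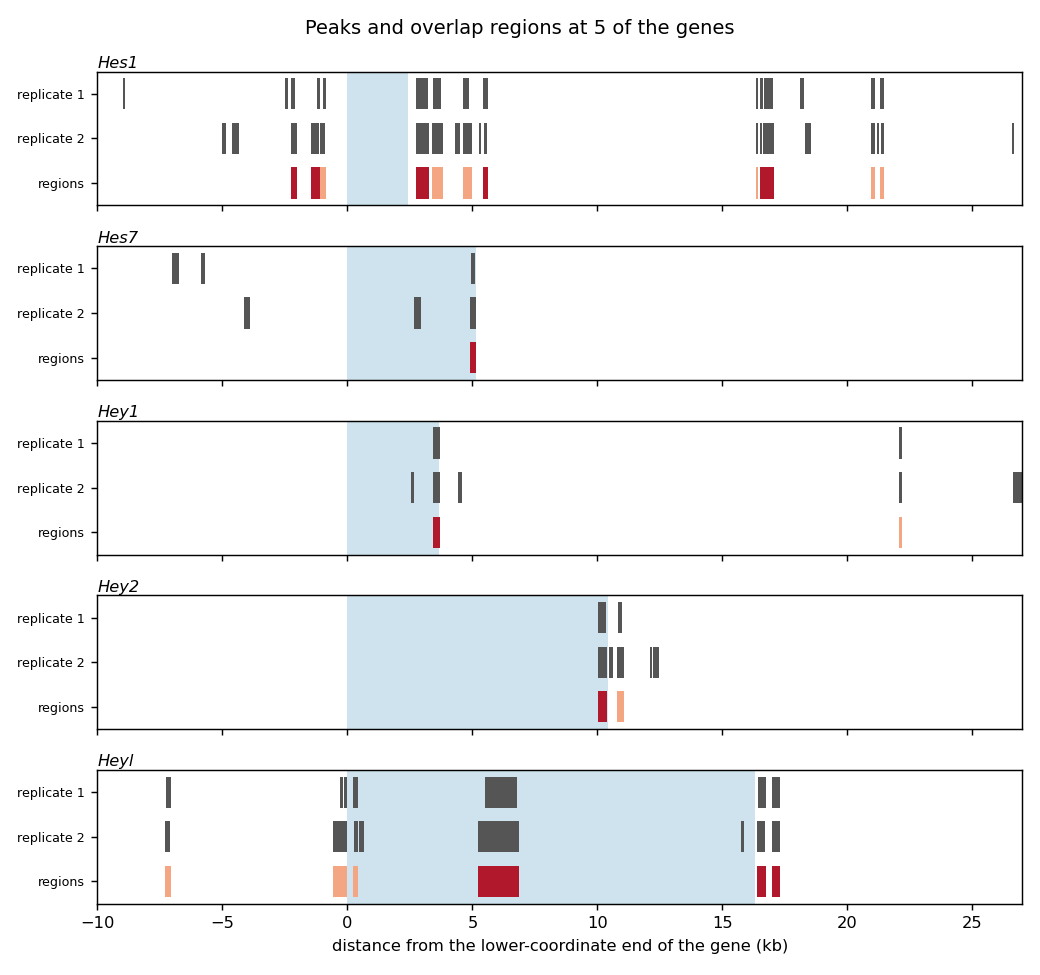
Peaks of replicates 1 and 2 and overlap regions (dark red at an IDR of 0.05 or lower, light red above it) by distance from the lower-coordinate end (x axis, kb) for the 5 genes with a reproducible region within 10 kb, with each gene as a blue band and bars at their true width. Reproducible regions flank Hes1 on both sides, and sit at the higher-coordinate end of Hes7, Hey1, Hey2 and Heyl.

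Hey1, an effector with roles in the developing heart and vessels, had the strongest region of all 7 genes (chromosome 3, gene at 8663359 to 8667038). It lay 50.4 kb above the gene (8716857 to 8718011, 1155 bp) with a value of 4.06e-98 in replicate 1 and a value listed at 0 in replicate 2, where 45 peaks are listed so. Its IDR of 1.55e-07 ranked 21 among 17234 regions. The gene LOC115489673, which overlaps the higher-coordinate end of Hey1, was slightly nearer to it, at 47.7 kb. The other regions of Hey1 were much weaker. The one that covered the higher-coordinate end (8666793 to 8667077) had 0.00101 and 7.6e-06 in replicates 1 and 2 (IDR 0.0439), and at an IDR of 0.01 it was lost. The one 82.3 kb below had 1.84e-07 and 4.59e-08 (IDR 0.00448) and was nearer to Stmn2, at 19.5 kb.

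Hey2, a repressor needed for the identity of ventricular heart muscle and for vessel formation, had 1 reproducible region (chromosome 10, 30842394 to 30842729). Its values were 8.87e-08 and 9.53e-22 in replicates 1 and 2 (IDR 2.78e-04). Hey2 lies on the minus strand in the promoter table, with its start site at 30842783, so the middle of the region was 222 bp downstream of the start site, inside the gene. On the other side of the start site a second region (30843127 to 30843404) had 0.0178 and 3.3e-07 (IDR 0.374) and was not reproducible. Between them lay a weak peak of replicate 2 alone (value 0.0469). The 250 bases upstream of the Hey2 start site (RefSeq, GRCm38.p6, chr10:30842784-30843033, minus strand) are shown because they lie between the 2 regions, with the 143 bases under that weak peak in capitals.
Hey2: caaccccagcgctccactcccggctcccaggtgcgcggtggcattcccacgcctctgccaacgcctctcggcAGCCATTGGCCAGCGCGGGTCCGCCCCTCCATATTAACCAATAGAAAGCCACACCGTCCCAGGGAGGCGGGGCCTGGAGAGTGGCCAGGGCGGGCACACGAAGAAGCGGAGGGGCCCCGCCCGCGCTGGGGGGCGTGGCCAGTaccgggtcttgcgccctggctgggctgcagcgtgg

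Hes5, which like Hes1 is an effector that keeps neural progenitors undifferentiated, had, like Hes6, a single reproducible region and none within 10 kb (chromosome 4, 154960626 to 154962372). No overlap region lay within 10 kb of it, and a peak of replicate 2 alone, 2.6 kb above, had a value of 0.0297. Its 1 reproducible region, 18.6 kb below the gene (154941900 to 154942194), had values of 1.72e-09 and 4.72e-14 in replicates 1 and 2 (IDR 2.22e-04). It was 18.9 kb upstream of the start site and nearer to Tnfrsf14, at 13.4 kb. The 250 bases upstream of the Hes5 start site (RefSeq, GRCm38.p6, chr4:154960673-154960922, plus strand), free of peaks in either replicate, are shown beside those of Hey2 for comparison. The start site of the promoter table lies within the wider span that the gene table gives for Hes5, as does that of Hes7, so these bases are inside the span. Capitals mark the RBPJ core GTGGGAA on either strand.
Hes5: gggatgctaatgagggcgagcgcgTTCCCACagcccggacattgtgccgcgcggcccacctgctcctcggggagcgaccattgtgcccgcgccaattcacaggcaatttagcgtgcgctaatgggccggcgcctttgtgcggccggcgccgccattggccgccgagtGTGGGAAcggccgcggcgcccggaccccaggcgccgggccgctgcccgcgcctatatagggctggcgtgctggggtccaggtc

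Promoter windows of RefSeq were matched for 4 of the 7 genes, Hes5, Hes6 (2 windows), Hes7 and Hey2. The RBPJ core GTGGGAA was searched on both strands in windows of 300 bases, of which 6.38% of all 32851 hold it. Hes5 and Hey2 held 2 matches each and Hes7 held 1, and neither window of Hes6 held any. At Hes5 they began 226 and 83 bases before the start site, and at Hey2 207 and 4 bases before it. Letters like those WT1 and the related EGR zinc-finger proteins are known to bind were searched as GTGGGNG (31.6% of all windows) and GCGGGGGCG (2.91%), and neither was in the windows of these 4 genes or in that of 4632428C04Rik. Of these windows, only that of 4632428C04Rik overlapped a reproducible region, by 108 bases. The search therefore does not show whether the reproducible regions of the 7 genes hold such letters. The bases under the other regions were not examined, since no genome sequence was used.

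Hes7, a component of the segmentation clock of the embryo (chromosome 11, 69118906 to 69124054), lies among many genes. Of its 4 regions, 1 was inside the gene, 142 bp from its higher-coordinate end (69123792 to 69124032) and 3.46 kb downstream of the start site. Its values were 9.03e-07 and 5.2e-09 in replicates 1 and 2 (IDR 0.00544), and Aloxe3 lay 1.5 kb away. The other regions were nearer to other genes. The strongest, 31.5 kb below Hes7 (69086940 to 69087845, 2.46e-10 and 1.04e-41, IDR 2.66e-05), was 1.14 kb from Vamp2. The region 22.0 kb below lay inside Per1 (0.00196 and 5.39e-10, IDR 0.0233) and the region 44.3 kb above inside Alox12b (8.1e-07 and 1.78e-10, IDR 0.00266).

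Hes6, which differs from the others in that it opposes Hes1 and favours differentiation (chromosome 1, 91411483 to 91414038), had its 1 reproducible region 42.8 kb above the gene. It lay inside Per2 (91456571 to 91457034) with values of 8.27e-19 and 7.96e-38 in replicates 1 and 2 (IDR 7.41e-06). Within 10 kb of Hes6 replicate 1 had a peak (value 0.0398) and replicate 2 another (0.0143) that did not overlap. The only reproducible region in the window of Hes6 was thus within a neighbouring gene.

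Across the 26 reproducible regions the significance value was smaller in replicate 2 for 24, against 90.3% of all reproducible regions, a like share. Ranked within its own list, as a share of that list, replicate 2 placed 12 of the 26 higher than replicate 1 did. The 2 exceptions by value were Hes1 regions, 35.0 kb above and 42.8 kb below. A start or end base common to peaks of both replicates was found at 12 of the 26, against 54.5% of all reproducible regions. Per the labels' protocols the DNA was cut with restriction enzymes before sequencing, and the part of this step in the common edges was not tested.

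**Figure D5:**
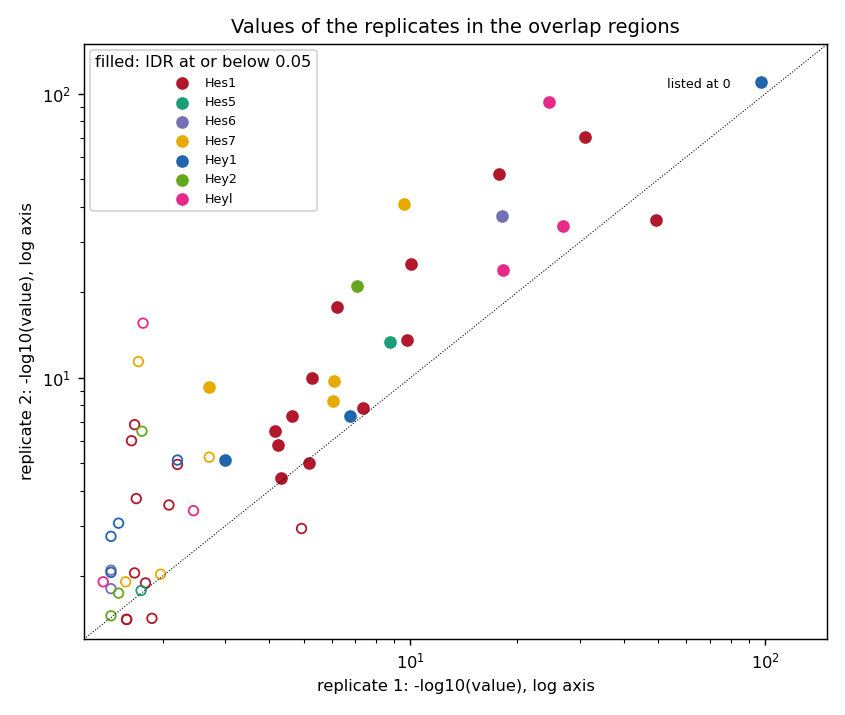
Significance values of replicate 1 (x axis) and replicate 2 (y axis) as -log10 on log scales for the 54 overlap regions of the 7 genes, filled where the IDR was 0.05 or lower, with equality as a dotted line. Most points lie above the line, and the Hey1 region listed at 0 in replicate 2 is drawn at an arbitrary height at the top.

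The rest of the Notch pathway was examined with a list of 44 genes without the Hes and Hey genes. Of these, 17 (38.6%, against 13.6% of protein-coding genes) had a reproducible region inside the gene or within 10 kb. Such a region could lie anywhere in the gene, and gene length was not adjusted for. The list was chosen with earlier results of these data known, so the contrast is a description and not a test. Among the ligand genes 2 of 7 had one, Dll1 (IDR 4.57e-05) and Jag1 (0.0418), and among the receptor genes 3 of 4, Notch1 (4.14e-04), Notch3 (0.00322) and Notch4 (0.034). Of 9 genes for ADAM proteases and the gamma-secretase complex, which cut the receptor, none had one. Within 100 kb, 5 of the 9 had one, as did 38.1% of all protein-coding genes. Enzymes and ligases that modify receptors and ligands had 4 of 7, Neurl1a (1.69e-06), Mib2 (1.01e-05), Mib1 (0.0138) and Lfng (0.0164).

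In the nuclear complex all 3 Mastermind genes had a region, with 11 at Maml3 (lowest IDR 1.01e-06) and 1 each at Maml2 (0.0125) and Maml1 (0.0462), and Rbpj had none within 100 kb. The 11 at Maml3 were regions counted over a gene of 418 kb. Of 12 inhibitors and corepressors 5 had one. Among them were Tle4 (0.00495), Tle3 (0.00698), Tle2 (0.0137) and Nrarp (0.0497), the last a feedback inhibitor of Notch. The Tle genes encode the Groucho-type corepressors that Hes proteins recruit. With the strongest peaks of replicate 1 alone the count of 17 became 10 (12.6% of protein-coding genes), with those of replicate 2 alone 16 (13.6%), and at an IDR of 0.01 it became 9 (9.71% of protein-coding genes). Among 5 further genes of the bHLH-Orange subfamily, Hes2, Hes3, Helt, Bhlhe40 and Bhlhe41, only Bhlhe40 had a region within 10 kb (13.6% of protein-coding genes). It lay 0.495 kb below the gene (IDR 1.46e-05). Within 100 kb, 3 of these 5 had a reproducible region, where 38.1% of protein-coding genes had one.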

How the data were processed

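WT1 ChIP-seq of E18.5 mouse kidneys was analysed from the peak lists of WT1 replicates 1 and 2 and the authors' table of regions common to them. The genome build, per the submitters' processing notes, is mm10, while aligner, caller and any use of IgG reads in calling are not stated in the sources used here. The value per peak in the deposited lists (up to 0.0499) is read as a p-value or q-value made by the authors, and the value per region of the deposited table (5.19e-08 to 0.555) as an IDR. The authors' read counts are not used here, so depth and its precision are unknown.

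Positions are 1-based. A region was placed by its midpoint, and its value in a replicate is the smallest of the peaks overlapping it by at least 1 bp. Genes and promoter sequences came from RefSeq tables of GRCm38.p6. Member genes, the list of 44 Notch pathway genes and the rules for counting were chosen with earlier results of these data known. The rule for naming genes took all 7 members, listed pathway genes with a reproducible region within 10 kb, neighbours holding or nearer to a region, 5 other bHLH-Orange genes, and genes with the same region count as Hes1, of which there were 0. Cxxc5, Ahdc1, Msi2, Rbpj and the noncoding genes were named after their values were seen. Results for 1 gene of the pathway list are not reported by name. No tests were run. Counting used Python 3.11.15, pandas 2.3.3 and numpy 2.4.6 and was tested on simulated data. Alternatives were other IDR thresholds, windows and placements, and each replicate alone (its 4411 peaks with the smallest values).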

Additional observations from a re-analysis of the deposited data

How the results depend on the processing

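Of 39 recomputed counts, 29 stayed within 1.5 times the count reported, among them all those of members with a region within 100 kb or 10 kb. The member counts cannot exceed 7, so looser settings could not move them beyond that limit. With regions counted only for the nearest gene, the members with one within 100 kb fell from 7 to 5, which is within it. At an IDR of 0.01 the regions around Hes1 fell from 13 to 8 and the Notch pathway genes from 17 to 9. With all overlap regions the counts were 24 around Hes1 and 54 around all members, where 71.6% of protein-coding genes had one within 100 kb. The pathway genes became 29, under a 10 kb rule that 33.6% of protein-coding genes then met. A window of 50 kb gave 8 regions around Hes1, one of 10 kb gave 4 around Hes1 and 10 around all members, and one of 100 kb gave 33 pathway genes (38.1% of all protein-coding genes). With 1 replicate left out, the strongest peaks of the other were counted in place of regions. Hes1 then had 11 to 15 peaks, all members 26 to 28, and the pathway list 10 to 16 genes. With replicate 1 or 2 left out, 7 members had a peak within 100 kb (37.8% and 36.6% of protein-coding genes) and 4 within 10 kb (13.6% and 12.6%). No paired analysis was possible because the counts come from no test and the files used here hold peak lists of the WT1 samples only. Without read depths, weak peaks of 1 replicate cannot be graded further.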

Other observations

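Reproducible regions went on beyond the 100 kb window above Hes1. Between Hes1 and Cpn2 there were 3 more, 118, 148 and 160 kb above Hes1, with an IDR of 1.15e-06, 4.28e-07 and 0.00206, so the stretch of 593 kb between Opa1 and Cpn2 held 16 in all. The middle one (chromosome 16, 30215613 to 30216425) had a lower IDR than any of the 13 within 100 kb, and it was nearer to Cpn2, at 40.4 kb, than to Hes1. No reproducible region lay between Opa1 and the one 92.1 kb below Hes1.

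Reproducible regions in the windows of Hes6 and Hes7 lay inside Per2 and Per1, genes of the circadian clock that neighbour them. The Per2 region had an IDR of 7.41e-06 and the Per1 region 0.0233, with a second Per1 region just above the threshold at 0.0511.

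Some sites in these windows had a far smaller value in replicate 2 than in replicate 1. Replicate 2 also had the smaller value at 90.3% of all reproducible regions. Beside the lower-coordinate end of Heyl (2.66e-16 and 0.0173 in replicates 2 and 1), this held for the region at Borcs6, 57.3 kb below Hes7 (3.94e-12 and 0.0195, IDR 0.477), for the region 482 bp above Hey2 (3.3e-07 and 0.0178, IDR 0.374), and for a pair of regions above Hes1, at 1.16 kb (9.97e-07 and 0.0232, IDR 0.467) and 2.35 kb (1.46e-07 and 0.0215, IDR 0.318).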
